A study of Saccharomyces cerevisiae with 39 samples.

Results

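The genes described here are those of the branch of purine synthesis that leads to GMP in budding yeast. They are the IMP dehydrogenase genes IMD1, IMD2, IMD3 and IMD4 and the GMP synthase gene GUA1, taken as the rows of the deposited count table with the identifiers YAR073W, YHR216W, YLR432W, YML056C and YMR217W. IMD2, IMD3, IMD4 and GUA1 were found, which is 4 of the 5 listed genes and 4 of the 6420 features in the table. IMD1 was not analysed here. The genes were selected on their counts by group and by replicate number in these same libraries, so p-values describe the fit over all features and are not independent support for the choice. All 4 genes found passed the filter on low counts, as did 5722 features in all.

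IMP dehydrogenase turns IMP into XMP, the rate-limiting step towards guanine nucleotides, and GMP synthase, the product of GUA1, turns XMP into GMP. IMD2 is the inducible IMP dehydrogenase gene of yeast. It is known for control by the choice of transcription start site, with early termination through the Nrd1, Nab3 and Sen1 proteins when guanine nucleotides are plentiful, and it confers resistance to mycophenolic acid. IMD3 and IMD4 are the constitutive genes, and IMD1, near the end of chromosome I, is regarded as a copy without function.

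Newly made RNA was measured with 4tU-seq, where a short pulse of 4-thiouracil labels the RNA made in that time, which is then purified and sequenced. In the tagged strain, BY4742 with tor1-1, an FPR1 deletion, RPL13A-FKBP12 as the anchor and Abf1 fused to FRB, yEGFP and V5, rapamycin takes the transcription factor Abf1 out of the nucleus. The tagged strain was sampled at 11 time points with 7.5 µM rapamycin, which were every 5 min up to 20 min, every 10 min from there to 60 min, and 75 and 90 min. Its 0 min group received the solvent DMSO for 90 min. The untagged parental strain (WT), which shares the anchor, the FPR1 deletion and tor1-1, was sampled after 90 min with solvent (WT 0 min) and 90 min with rapamycin (WT 90 min). Each of the 13 groups held 3 libraries described as biological triplicates, numbered 1 to 3, which makes 33 tagged and 6 WT libraries. The study describes slower growth of the tagged strain, so the strains differ in more than the response to rapamycin. Total counts per library ran from 3500982 to 11266408, with a median of 5467295, and FPR1 had at most 0 counts in any library, as its deletion requires. The removal of Abf1 acts on the protein and cannot be checked from these counts.

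The IMP dehydrogenase genes resemble each other, which bears on every count below. In the R64 assembly, which is sacCer3, IMD2 lies on the plus strand at chrVIII:554396-555967, IMD3 on the plus strand at chrXII:1002557-1004128, and GUA1 on the plus strand at chrXIII:701790-703367, each with 1 exon. IMD4 lies on the minus strand at chrXIII:162194-164176 and has 2 exons, with an intron of 408 bases that holds the snoRNA gene SNR54. The coding sequences of IMD2 and IMD3 were 88.9% identical, those of IMD2 and IMD4 79.8%, and those of IMD3 and IMD4 82.7%. The encoded proteins were 92.5%, 84.3% and 89.1% identical, in the same order. A further IMD2-like stretch at chrI:227742-229317 matched IMD2 at 96.3% over 1576 aligned bases.

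The stretch around the active-site cysteine shows how close the genes are, and is printed for that reason. Capitals mark bases that differ from IMD2, and the 90 coding bases run 5′ to 3′ on the coding strand.
IMD2 (chrVIII:555353-555442, plus strand): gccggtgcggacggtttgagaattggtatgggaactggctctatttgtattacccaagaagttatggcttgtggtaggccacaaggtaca
IMD3 (chrXII:1003514-1003603, plus strand): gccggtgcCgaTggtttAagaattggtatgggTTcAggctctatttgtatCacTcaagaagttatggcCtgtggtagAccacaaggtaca
IMD4 (chrXIII:162719-162808, minus strand): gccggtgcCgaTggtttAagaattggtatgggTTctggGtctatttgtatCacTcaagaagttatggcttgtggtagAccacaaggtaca
IMD3 had 10 differences from IMD2 in this stretch and IMD4 had 9, while IMD3 and IMD4 differed from each other at 3 bases.

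A single read can be assigned to 1 gene only where its bases occur once in the genome. The study sequenced each fragment from both ends, 75 bases each, so a mate in sequence found once can place a read from a shared window. The shares given here are for single reads and do not use the mate. Of the 1518 windows of 55 bases in the IMD2 coding sequence, 467 (30.8%) also occurred elsewhere, against 223 (14.7%) for IMD3, 94 (6.18%) for IMD4 and 0 for GUA1. The window of 55 bases stands for a read of 75 bases less the 10 that the aligner removed at each end. With windows of 75 bases the shares were 19.7%, 8.81%, 4.33% and 0. The longest stretch of IMD2 that chromosome I repeats without a difference is coding bases 492 to 636, 145 bases long. It is printed here because single reads from within it fit both places.
IMD2 (chrVIII:554887-555031, plus strand; the same letters at chrI:228233-228377): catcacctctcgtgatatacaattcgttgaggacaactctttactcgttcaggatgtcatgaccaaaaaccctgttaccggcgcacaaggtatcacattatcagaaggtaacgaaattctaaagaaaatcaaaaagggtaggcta
How the counting step treated reads with more than 1 place is not given in the sources used here, so counts of IMD2, IMD3 and IMD4 can hold or lack reads of each other and of the copy on chromosome I. The map of shared windows shows where in each gene this applies.

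**Figure D1:**
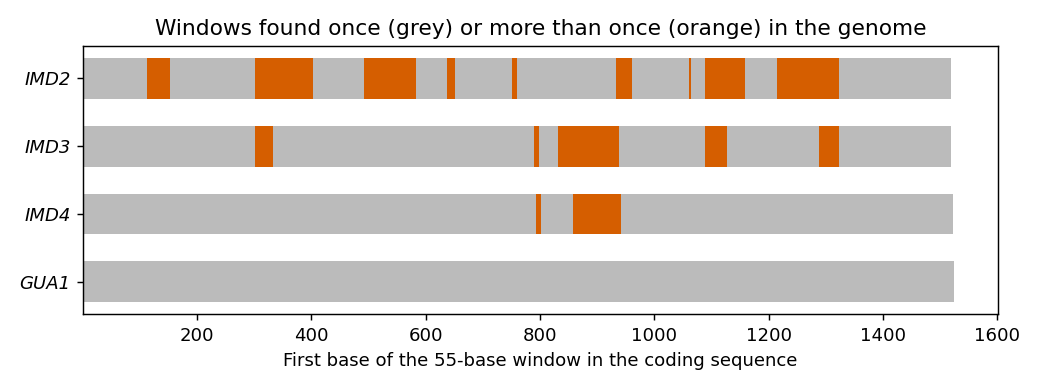
Windows of 55 bases along the coding sequence of each gene, by the first base of the window (x axis, bases). Orange windows occur more than once in the genome and grey ones do not, and GUA1 has 0 orange windows against 467 of 1518 in IMD2.

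IMD2 was the gene of lowest synthesis, and its level in the tagged strain split by replicate number. In the 11 tagged libraries numbered 1, IMD2 had 2.21 CPM at the lowest, 4.92 at the median and 5.97 at the highest (CPM are counts scaled to TMM-adjusted library totals). In the 22 tagged libraries numbered 2 or 3 it had 30.0, 41.3 and 60.7 CPM. In the 6 WT libraries it had 13.5, 18.1 and 22.5 CPM. These 3 sets of libraries did not overlap, the WT libraries lying between the tagged ones. The share of all features that separate these sets is not given here. The counts behind these values were 10 to 40 in the tagged libraries numbered 1, 157 to 468 in those numbered 2 or 3, and 69 to 165 in WT. With 10 counts, the exact 95% Poisson interval ran from 4.80 to 18.4 counts, which covers counting error only.

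The split by replicate number was present before rapamycin and kept its order at every time point. At 0 min the tagged libraries numbered 1, 2 and 3 had 2.89, 37.8 and 52.7 CPM of IMD2, and at 90 min they had 4.92, 37.0 and 50.4 CPM. In WT the libraries numbered 1, 2 and 3 had 14.6, 17.7 and 13.5 CPM at 0 min and 22.5, 18.4 and 19.9 CPM at 90 min. The low value of number 1 in the tagged strain therefore has no counterpart among the WT libraries that carry this number. What the libraries of 1 number share (a colony, a pre-culture or a day) is not given in the sources used here.

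**Figure D2:**
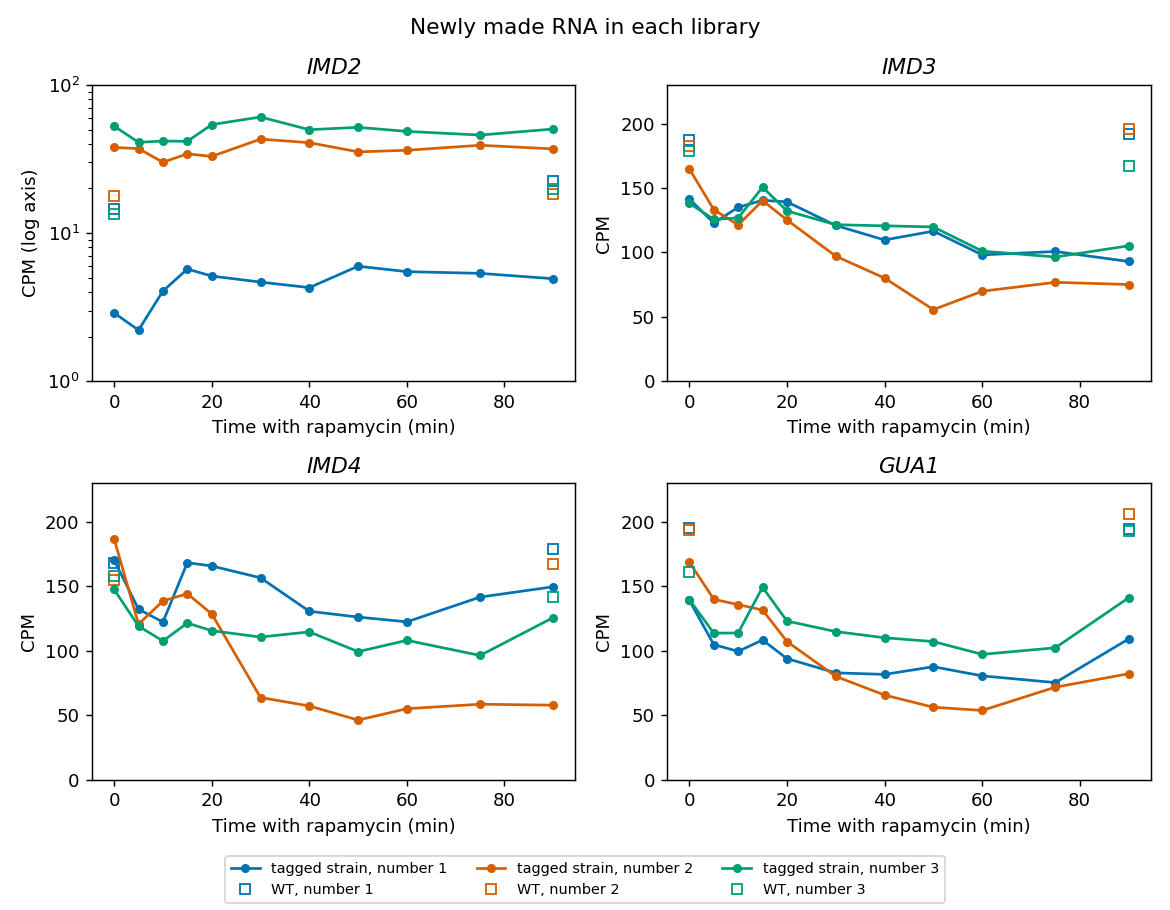
CPM of each gene in each library (y axis, on a log axis for IMD2) by time with rapamycin (x axis, min), with lines for the tagged strain by replicate number and open squares for WT. IMD2 in the tagged libraries numbered 1 stays at or below 5.97 CPM, under all WT and all other tagged libraries, and IMD3, IMD4 and GUA1 lie lowest in number 2 from 30 min on.

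In a fit of the 33 tagged libraries with a term for the time point, IMD2 in numbers 2 and 3 was higher than in number 1 by 3.18 on the log2 scale (SE 0.09). Number 2 exceeded number 1 by 2.97 (SE 0.10), number 3 exceeded number 1 by 3.38 (SE 0.10), and number 3 exceeded number 2 by 0.41 (SE 0.07). Because this pattern was known when the genes were chosen, the values are given here without a p-value. A test of the replicate number named further below is not read as support. Of 5717 features in that fit, IMD2 ranked 12 by the absolute size of this difference. The median absolute difference was 0.16, and 222 features had a difference over 1, of which 215 were higher and 7 lower in numbers 2 and 3. The same difference of IMD3 was -0.12 (SE 0.07), that of IMD4 was -0.51 (SE 0.13) and that of GUA1 was 0.15 (SE 0.09), each on the log2 scale. From the highest value down, GUA1 ranked 1520, IMD3 4046 and IMD4 5594 of 5717.

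**Figure D3:**
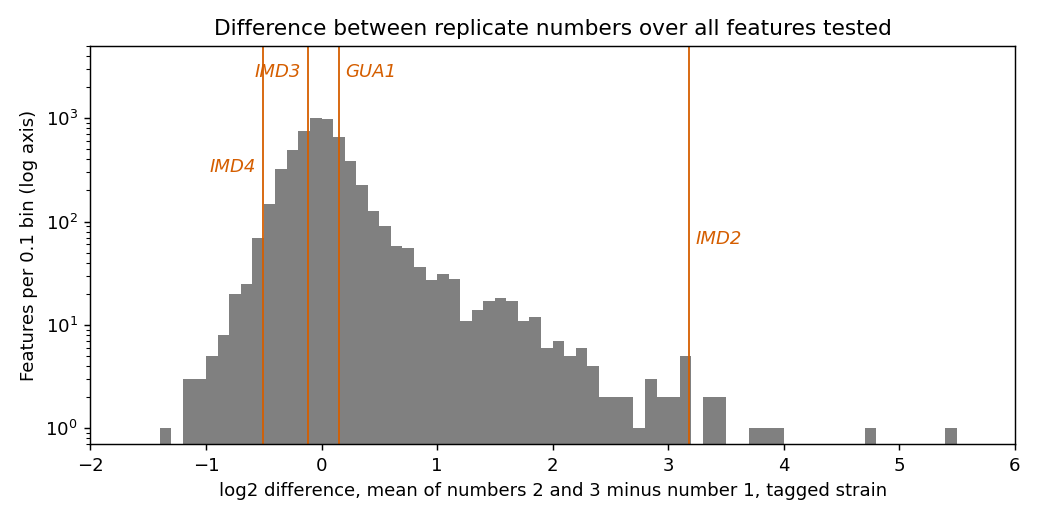
Histogram of the log2 difference between tagged libraries numbered 2 or 3 and those numbered 1 (x axis) over the 5717 features fitted (y axis, features per bin, log axis). IMD2 lies at 3.18, far out on the right, while GUA1 and IMD3 lie near the centre at 0.15 and -0.12 and IMD4 lies in the lower tail at -0.51.

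The sequence shared among the genes was set beside this split. IMD2 made up 0.860% to 2.43% of the counts of IMD2, IMD3 and IMD4 together in the tagged libraries numbered 1, with a median of 1.75%. In those numbered 2 or 3 it made up 9.71% to 25.8%, with a median of 17.9%, and in WT 3.87% to 6.03%, with a median of 4.90%. Of the flanking genes of IMD2, the acid phosphatase gene PHO12 was also higher in numbers 2 and 3, by 1.35 (SE 0.15) on the log2 scale, at 1.20 to 2.44 CPM in number 1. Of PHO12, 86.1% of the windows of 55 bases occur elsewhere, mainly on chromosome I, so most single reads do not tell it apart from that copy. On the other side, YHR218W was higher by 0.52 (SE 0.15), with a mean of 6.18 CPM in the tagged strain at 0 min. Windows of YHR218W that occur elsewhere in the genome were not counted. The flanking genes of IMD3, IMD4 and GUA1 differed by no more than 0.17 in absolute size, with ATG23, next to IMD3, at -0.17 (SE 0.04). IMD2 lies 6676 bases from the right end of chromosome VIII. The part of reads shared with other places in the split was not tested.

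In the main fit, the spread between the numbers set the errors of IMD2 over time. Its mean level in the tagged strain was 31.1 CPM (SD 25.6, n = 3) at 0 min, 30.7 (SD 24.5, n = 3) at 20 min and 30.8 (SD 23.4, n = 3) at 90 min. The log2 fold change against 0 min lay between -0.27 at 10 min and 0.23 at 30 min, with standard errors near 1.05. The 95% interval at 90 min ran from -2.21 to 2.17. This fit had no term for the replicate number, so the spread between the numbers enters these errors. The edgeR adjusted p over all time points was 1.00. IMD2 was called neither higher nor lower at any of the 10 time points. Its biological coefficient of variation (spread between libraries of a group beyond counting) was 88.5%, against a median of 12.2% over all features. In the fit of the tagged libraries alone, with the replicate number as a term, it was 8.07%, against a median of 9.25%. Changes over time were not estimated in that fit of the tagged libraries. Within number 1 the level went from 2.89 to 4.92 CPM between 0 and 90 min, on 16 and 20 counts. Within number 2 it went from 37.8 to 37.0, and within number 3 from 52.7 to 50.4 CPM.

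Against WT at 0 min, IMD2 in the tagged strain was higher by 1.02 (SE 1.1) on the log2 scale with an edgeR adjusted p of 0.749, and the groups overlapped. With the tagged libraries numbered 1 left out, an alternative added after the values were seen, the difference was 1.55 (adjusted p = 0.00106) and was called higher. At 90 min the difference was 0.59 (SE 1.08, adjusted p = 0.688). Without number 1 it was 1.06 (adjusted p = 0.0016), also called higher. The call between strains thus rests on which replicate numbers enter. The libraries left out hold the lowest IMD2 values, so leaving them out raises the difference by construction, and nothing is read from these calls. The share of all features called in that reduced fit is not given here. Rapamycin in WT left IMD2 at 20.3 CPM (SD 2.06, n = 3) against 15.3 CPM (SD 2.16, n = 3), 2 groups that did not overlap, with a log2 fold change of 0.40 (SE 1.11, adjusted p = 0.963) in the fit of all libraries.

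IMD3, which encodes a constitutive IMP dehydrogenase, was called lower in the tagged strain in the late part of the course only. Libraries numbered 1, 2 and 3 had 141.5, 164.8 and 138.1 CPM at 0 min, 98.1, 69.8 and 101.0 CPM at 60 min, and 92.9, 75.1 and 105.1 CPM at 90 min. Every library at 60 or 90 min was below every library at 0 min, as at 5, 10, 30, 40, 50 and 75 min, though not at 15 or 20 min. Groups of 3 libraries can separate in this way by chance, and the share of all features that did so is not given here. The mean went from 148 CPM (SD 14.5, n = 3) at 0 min to 127 (SD 5.37) at 5 min, 144 (SD 5.94) at 15 min and 132 (SD 7.03) at 20 min. It was 103 (SD 21.0) at 40 min, 89.6 (SD 17.2) at 60 min and 91.0 (SD 15.1) at 90 min. IMD3 was called lower by edgeR at 60 min, where the log2 fold change stood at -0.72 (SE 0.18, adjusted p = 0.00271), at 75 min with -0.70 (SE 0.18, adjusted p = 0.00327) and at 90 min with -0.71 (SE 0.18, adjusted p = 0.0031). Over all time points its edgeR adjusted p was 0.00324. In WT the libraries had 187.2, 182.8 and 178.7 CPM without and 191.7, 195.9 and 167.1 CPM with rapamycin, a log2 fold change of 0.02 (SE 0.18), and these groups overlapped.

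GUA1, the gene for GMP synthase, was called lower earlier than IMD3 and was no longer called at 90 min. Libraries numbered 1, 2 and 3 had 139.2, 168.8 and 139.7 CPM at 0 min, 80.6, 53.7 and 97.3 CPM at 60 min, and 109.2, 82.2 and 141.1 CPM at 90 min. At 60 min all libraries were below those at 0 min, while at 90 min number 3 was back above its own value at 0 min. The share of all features with such a separation is not given here. The mean went from 149 CPM (SD 16.9, n = 3) at 0 min to 108 (SD 14.6) at 20 min, 85.8 (SD 22.5) at 40 min, 77.2 (SD 22.0) at 60 min and 111 (SD 29.5) at 90 min. In edgeR the log2 value against 0 min stood at -0.80 (SE 0.22, adjusted p = 0.00829) at 40 min, -0.83 (SE 0.23, adjusted p = 0.00535) at 50 min, -0.95 (SE 0.23, adjusted p = 0.00147) at 60 min and -0.84 (SE 0.22, adjusted p = 0.0039) at 75 min. At 90 min it was -0.43 (SE 0.22, adjusted p = 0.135). Over all time points the edgeR adjusted p was 0.00959. In WT the mean was 183 CPM (SD 19.1, n = 3) without and 198 CPM (SD 7.0, n = 3) with rapamycin, a log2 fold change of 0.11 (SE 0.22).

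IMD4, the other constitutive gene, was not called at any time point in the fit without a term for the replicate number. Libraries numbered 1, 2 and 3 had 170.4, 186.9 and 147.6 CPM at 0 min, 122.5, 55.1 and 108.2 CPM at 60 min, and 149.8, 57.8 and 125.8 CPM at 90 min. Number 2 was far below the other two at the later times. All values of IMD4 at 5, 10, 40, 50, 60 and 75 min were below those at 0 min, and at the other times the groups overlapped. Such a separation can arise by chance with 3 libraries a group, and its share over all features is not given here. At 5 min edgeR gave IMD4 -0.44 (SE 0.35, adjusted p = 0.85). Its change was largest in size at 50 min, where edgeR gave -0.89 (SE 0.35, adjusted p = 0.0616), and the 95% interval ran from -1.61 to -0.16. Over all time points its edgeR adjusted p was 0.475. WT had 161 CPM (SD 7.14, n = 3) without and 163 CPM (SD 18.9, n = 3) with rapamycin.

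Counted together, 0 of the 4 genes were called lower from 5 to 30 min, GUA1 at 40 and 50 min, IMD3 and GUA1 at 60 and 75 min, and IMD3 at 90 min. The share of all tested features called lower was 0.507%, 4.02%, 6.85%, 8.65% and 9.8% at 5, 10, 15, 20 and 30 min, and 10.3%, 10.6%, 11.1%, 11.3% and 11.3% at 40, 50, 60, 75 and 90 min. None of the 4 genes was called higher at any time, where the share of features called higher was 0%, 0.245%, 0.315%, 0.629% and 1.26% at 5 to 30 min and 1.49%, 2.66%, 2.74%, 4.74% and 6.26% at 40 to 90 min. Over all time points IMD3 and GUA1 passed an adjusted p of 0.01, as did 23.7% of all features. Rapamycin in WT gave 0 calls among the 4 genes and 0% over all features in each direction.

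**Figure D4:**
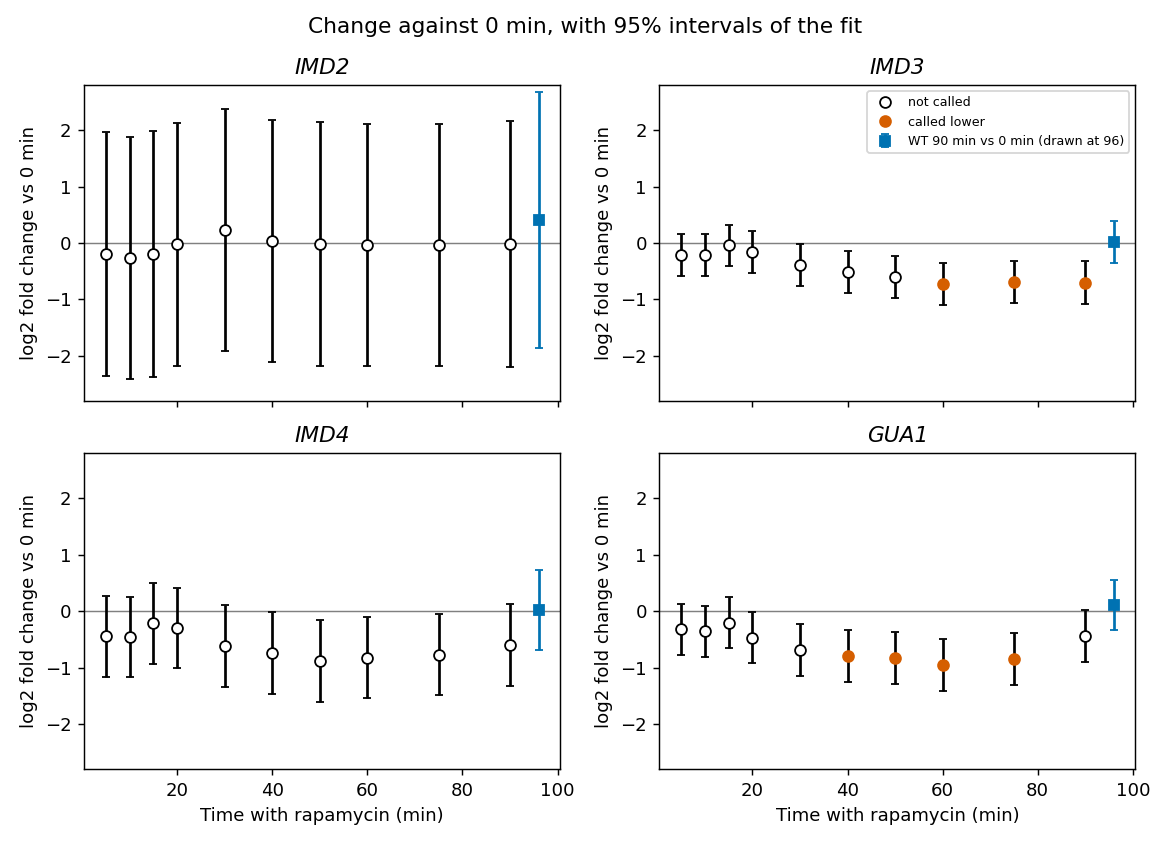
Log2 fold change against 0 min (y axis) by time with rapamycin (x axis, min) for each gene in the tagged strain, circles, and for WT at 90 min, squares, with the 95% intervals of the fit. Filled orange circles mark calls (GUA1 at 40 to 75 min, IMD3 at 60 to 90 min), and the intervals of IMD2 span about 4 units.

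Late in the course the libraries numbered 2 lay lower than the rest for IMD3, IMD4 and GUA1, and the calls depended on them. The time points were split after the values were seen into 0 to 20 min and 30 to 90 min. The median CPM of IMD4 in the early and late part was 166 and 136 in number 1, 139 and 57.5 in number 2, and 119 and 109 in number 3. For IMD3 these medians were 139 and 105 in number 1, 133 and 75.9 in number 2, and 132 and 112 in number 3. For GUA1 they were 105 and 82.3 in number 1, 136 and 68.7 in number 2, and 123 and 109 in number 3. The change from early to late was lower in number 2 than in number 1 by 1.20 (SE 0.10) for IMD4, 0.50 (SE 0.11) for IMD3 and 0.66 (SE 0.11) for GUA1 on the log2 scale, and for IMD2 the difference was -0.18 (SE 0.21). These differences stood at percentiles 0.630, 8.55, 4.15 and 26.7 of all features for IMD4, IMD3, GUA1 and IMD2. Against number 3 the difference was -1.18 (SE 0.10) for IMD4, -0.57 (SE 0.11) for IMD3 and -0.81 (SE 0.11) for GUA1. The snoRNA gene SNR54 in the IMD4 intron had medians of 5.43 and 1.6 CPM in number 2, against 3.25 and 3.84 in number 1 and 2.88 and 2.79 in number 3, on 4 to 35 counts.

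With the tagged libraries numbered 2 left out, IMD3 at 60 min was at -0.52 (adjusted p = 6.3e-05) and at 90 min at -0.53 (adjusted p = 5.6e-05), both under the fold of 1.5 that a call needed. GUA1 at 60 min was then at -0.68 (adjusted p = 0.0147). None of the 4 genes was then called lower at any time point from 40 to 90 min. With the libraries numbered 1 left out none was called either, although IMD3 and GUA1 then lay further below 0 at 40, 60 and 90 min than with all libraries. IMD3 stood at -0.87 (adjusted p = 0.0181) at 60 min and -0.78 (adjusted p = 0.0276) at 90 min, and GUA1 at -1.07 (adjusted p = 0.0177) at 60 min. With those numbered 3 left out, 1 gene was called lower at 30, 40, 50, 60 and 75 min and 0 at 90 min. The fold change of IMD3 and GUA1 at 40, 60 and 90 min stayed below 0 in all of these. Single libraries mattered too. IMD3 lost its call at 60 min without replicate 2 of that time (-0.60, adjusted p = 0.0315) or of 0 min (-0.68, adjusted p = 0.0153), and at 90 min likewise (-0.62, adjusted p = 0.0264, and -0.67, adjusted p = 0.0144). GUA1 lost its call at 60 min without replicate 2 of that time (-0.77, adjusted p = 0.0191), and at 40 min without any of replicates 1 and 2 of that time or 1, 2 and 3 of 0 min (-0.88 to -0.65, adjusted p up to 0.078). The number of genes called was 0 at 50 and 75 min without replicate 2 of 0 min or of the time itself, 2 at 50 min without its replicate 1 or 3, and 1 at 75 min without its replicate 1. Over all time points fewer than 2 genes passed when any of 21 of the 33 tagged libraries was left out, and 0 passed without replicate 2 of 0 min.

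Between the strains at 90 min, IMD3 was lower in the tagged strain by 1.03 on the log2 scale (log2 fold change -1.03, SE 0.18, edgeR adjusted p = 3.2e-05), and GUA1 by 0.84 (-0.84, SE 0.22, adjusted p = 0.00284). IMD4 stood at -0.56 (SE 0.35, adjusted p = 0.21). Of all features 14.1% were called lower in this comparison and 9.33% higher. At 0 min, before rapamycin, IMD3 stood at -0.30 (SE 0.18, adjusted p = 0.493) and GUA1 at -0.30 (SE 0.22, adjusted p = 0.608), neither called, with 0.28% of features called lower and 0.245% higher. The difference between the strains in the change at 90 min was -0.72 (SE 0.26, adjusted p = 0.045) for IMD3 and -0.54 (SE 0.31, adjusted p = 0.255) for GUA1. Neither passed the threshold of 0.01, while 8.83% of features were called lower and 2.81% higher. GUA1 between strains at 90 min lost its call without replicate 2 of WT (-0.81, adjusted p = 0.0107) or of the tagged strain (-0.69, adjusted p = 0.0259). For the interaction of IMD3 the adjusted p was 0.00383 when only the compared groups entered the fit.

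Compared per kilobase of exon, IMD2 was the lowest of the 4 genes in all 39 libraries. At 0 min in the tagged strain the levels were 107 CPM per kb (SD 12.5, n = 3) for IMD4, 94.6 (SD 10.7) for GUA1, 94.2 (SD 9.25) for IMD3 and 19.8 (SD 16.3) for IMD2. In WT at 0 min they were 116 (SD 2.70) for IMD3, 116 (SD 12.1) for GUA1, 102 (SD 4.53) for IMD4 and 9.72 (SD 1.38) for IMD2. IMD3, IMD4 and GUA1 were neighbours within their spread in the tagged strain at 0 min. IMD4 exceeded IMD3 in 17 of 39 libraries and GUA1 exceeded IMD3 in 14 of 39. The counts of IMD2, IMD3 and IMD4 were also added up. Reads counted for the wrong one of these 3 genes do not move this sum. Adding does not regain reads left uncounted, nor set apart those of the copy on chromosome I. The sum was lower at 60 min by 0.69 on the log2 scale (-0.69, SE 0.20, edgeR adjusted p = 0.00791) and stood at -0.58 (SE 0.20, adjusted p = 0.0229) at 90 min.

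IMD3, IMD4 and GUA1 moved alike from library to library. Over the 33 tagged libraries Pearson's r of log2 CPM was 0.84 between IMD3 and IMD4, 0.82 between IMD3 and GUA1 and 0.70 between IMD4 and GUA1, while IMD2 stood at -0.15, -0.45 and 0.15 against IMD3, IMD4 and GUA1. These libraries share time points, replicate numbers and the scaling to labelled RNA, and reads shared between IMD genes enter too. By group means over the 13 groups, the features with the pattern most like IMD3, among 5210 candidates, were ERB1 (r = 0.99), YDR341C (0.99) and SDA1 (0.98). For IMD4 they were SIT1 (0.98), SSB1 (0.97) and BRX1 (0.97), and for GUA1 they were AUR1 (0.99), URA7 (0.99) and RPA135 (0.98). For IMD2 they were PEX32 (0.94), OST6 (0.92) and GRX3 (0.91). Over the 39 single libraries the same r was 0.92, 0.90 and 0.87 for the IMD3 features, 0.35, 0.89 and 0.72 for those of IMD4, 0.87, 0.98 and 0.94 for those of GUA1, and 0.77, 0.16 and 0.22 for those of IMD2, in the order named.

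The flanking genes of IMD3 and IMD4 were not called at 90 min. There CNA1, beside IMD3, stood at -0.16 (SE 0.09) and ATG23 at 0.06 (SE 0.11), and CMP2 and SPC2, beside IMD4, stood at 0.26 (SE 0.08) and 0.10 (SE 0.22). SKY1, a protein kinase gene beside GUA1, was called lower at 20 min by -0.75 (SE 0.11, edgeR adjusted p = 2.1e-06) and at 90 min by -1.19 (SE 0.11, adjusted p = 2.2e-10), while TRS130 on the other side stood at -0.15 (SE 0.09). In the 300 bases from 250 before to 50 within the coding start, the Abf1 consensus had no match on either strand in any of the 4 genes, and 12.0% of 6001 such windows of annotated genes held one. TATAAA was found in IMD4, from -204, and in GUA1, from -137, and in 45.2% of all windows. TGACTC was found in none of the 4 and in 7.98% of all windows. These are matches of letters only, and the Abf1 sites measured in the study were not used here. The study assigned Abf1 peaks to genes over a longer stretch, before the transcription start. The window of GUA1 covers only part of the 750 bases between SKY1 and GUA1, and matches in the rest are not given here.

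Other genes of purine metabolism were described by lists of 55 genes in all. Of 16 genes for the path to IMP, PHO2, a homeodomain activator of purine genes, was called lower at 20 min (-0.59, SE 0.12, edgeR adjusted p = 0.000447), which is 1 of 16 beside 8.65% of all features. At 90 min 3 of the 16 were called lower, beside 11.3% of all features. These were PRS3, a gene of phosphoribosyl pyrophosphate synthesis (-1.02, SE 0.18), BAS1, the partner of Pho2 (-0.81, SE 0.14), and PHO2 (-0.83, SE 0.12). The list's median was -0.18 at 20 min and -0.22 at 90 min, against 0.06 and 0.04 over all features. Of 8 genes of the AMP branch, 0 were called at 20 min and 2 were called lower at 90 min (8.65% and 11.3% of all features), the adenine deaminase gene AAH1 (-1.53, SE 0.41) and the adenine phosphoribosyltransferase homologue APT2 (-1.57, SE 0.41). Of 12 genes for GMP kinase, salvage and breakdown and 8 one-carbon genes, 0 were called at either time, beside the same shares of all features called lower and 0.629% and 6.26% called higher. HPT1, the salvage enzyme for guanine and hypoxanthine, stood at -0.97 (adjusted p = 0.0337) at 90 min. Of 11 factors of start-site choice and early termination, TFG1, a subunit of TFIIF, was called lower at 20 min (-1.21, SE 0.09) and at 90 min (-1.23, SE 0.09), and the median of these factors was 0.00 and 0.02. In WT, 0 of the 55 genes and 0% of all features were called with rapamycin.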

How the data were processed

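The authors deposited raw counts per feature, the unit used here. Following their methods, reads were aligned to sacCer3 with HISAT2 2.0.5, reduced to unique molecular identifiers, counted with featureCounts (Subread 1.6.5), and 2 sequence runs were added. The alignment setting was strand-specific, while the strand and multi-mapping settings of the counting step are not given in the sources used here. A deposited table of the authors' comparisons (log2 ratios and adjusted p-values, made with DESeq2 1.10.1) was not used. The members and gene lists were chosen with earlier results of these data known.

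Counts were tested with edgeR 4.0.16 in R 4.3.3 (quasi-likelihood F-test, robust, TMM, 1 coefficient per group over 39 libraries, filterByExpr with a minimum count of 10). A call needed a Benjamini-Hochberg adjusted p under 0.01 over all 5722 features tested and a fold over 1.5. Replicate numbers were compared in the 33 tagged libraries beside a term for the group. The procedure was tested on simulated data. DESeq2 1.42.0, library totals, no filter, a replicate block, only the groups compared and leaving out libraries were alternatives. Sequences and coordinates came from RefSeq for R64, read with Biopython 1.88 and BLASTN 2.17.0. IMD1 has no values here. No reference RNA was added in a known amount, so levels are relative to the labelled RNA of a library. Poisson and binomial intervals cover counting error only, while the intervals of fold changes come from the edgeR fit and include the spread between libraries.

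Named genes were the members, features tied to them by position, the 3 most alike over 13 group means (mean count at least 50), and list genes called at 20 or 90 min or among the 3 largest changes of a list. Same-numbered tagged libraries deviated together in 163 of 165 pairs (correlation over 0.1) and WT libraries in 1 of 3.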

Additional observations from a re-analysis of the deposited data

How the results depend on the processing

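When each library was left out in turn, the number of the 4 genes called lower ranged from 0 to 1 at 40 min, 0 to 2 at 50 min, 0 to 2 at 60 min, 0 to 2 at 75 min, 0 to 1 at 90 min and 1 to 2 between strains at 90 min, and those passing over all time points from 0 to 2. IMD3 at 60 min ranged from -0.86 to -0.60 and GUA1 from -1.19 to -0.77 on the log2 scale, and each lost its call without replicate 2 of that time point.

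Without the tagged libraries numbered 1, 0 genes were called lower at 40, 50, 60, 75 and 90 min, 0 passed over all time points, and between strains 1 gene was higher at 0 min, 1 higher and 1 lower at 90 min. Without those numbered 2, 0 were called lower at 40, 50, 60, 75 and 90 min and 1 passed over all time points. Without those numbered 3, 1 was called lower at 30, 60 and 75 min, 0 at 90 min, and 1 passed over all time points. With only the groups compared, 0 were called lower at 40, 50 and 60 min, 0 passed over all time points, and 1 was lower in the interaction. DESeq2 gave 2 at 50 min, and no filter on low counts left 1 over all time points. An F-test of the replicate number gave an adjusted p under 0.01 for 4 of the 4 genes and for 46.5% of all features. The genes were chosen on these values, so nothing is read from it. The count was 2 with all 39 libraries, with library totals only, and without the 15, 20, 30, 40, 50, 60, 75 or 90 min libraries.

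With the replicate number as a block, 1 gene was called lower at 30 min and 3 at 50 min. These were GUA1 at 30 min (-0.71, SE 0.20, adjusted p = 0.00686) and IMD3, IMD4 and GUA1 at 50 min, where IMD4 stood at -0.97 (SE 0.28, adjusted p = 0.00776). At the other 9 time points IMD4 was not called with the block. Tagged libraries of the same number deviated together, with a median correlation of 0.51 against -0.38 between numbers. Of the 33 tagged libraries, 31 were closest to their own number. Still, 2 of the 165 same-numbered tagged pairs (minimum 0.08) and 2 of the 3 WT pairs had a correlation of 0.1 or less. By the rule used, which these pairs failed, the number was not a term of the main fit. The block gave IMD2 log2 values of 0.021 at 20 min, 0.024 at 60 min, 0.046 at 90 min and -0.088 between strains at 90 min. It fitted the same effect of each number to tagged and WT libraries, although number 1 was low in IMD2 in the tagged strain only. The SE of IMD2 at 90 min against 0 min was 0.55 with this block.

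The values that changed sign were not called in the fit reported above, though IMD2 between strains at 90 min, at -0.088 with the block, was called higher without number 1 (1.06). IMD2 changed sign at 20 min without number 2 (0.042), and at 40 min with library totals (-0.022), only the groups compared (-0.0048), DESeq2 (-0.0083), without number 1 (-0.036) and without number 2 (-0.052). IMD4 between strains at 0 min stood at -0.014 without number 2. With single libraries left out, IMD2 ranged from -0.70 to 0.53 at 20 min, -0.55 to 0.60 at 40 min, -0.63 to 0.53 at 60 min, -0.62 to 0.54 at 90 min and -1.02 to 0.14 in the interaction. IMD3 and IMD4 with rapamycin in WT ranged from -0.027 to 0.084 and -0.052 to 0.11, and IMD4 between strains at 0 min from -0.015 to 0.15. The cause of these shifts was not tested. The low counts of IMD2 in the tagged libraries numbered 1 limit its precision there, and a value of IMD2 at a time point holds both replicate-number levels.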

Other observations

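Other features also separated the tagged libraries by replicate number, and these were chosen after their values were seen. The largest differences of numbers 2 and 3 from number 1 were 5.43 for ERR3 (SE 0.75), 4.79 for COS12 (SE 0.35) and 3.98 for YIR043C (SE 0.33) on the log2 scale, followed by the allantoate permease homologue SEO1 at 3.86 (SE 0.25). PRM2, a pheromone-regulated gene, stood at 3.35 (SE 0.12).

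Among the 55 listed genes of purine metabolism and of IMD2 control, 1 had a difference over 1 in absolute size. This was FCY21, a gene related to the purine and cytosine permease gene FCY2, at 1.64 (SE 0.10). Its relative FCY22 stood at 0.82 (SE 0.24), APT2 at 0.78 (SE 0.12) and AAH1 at 0.59 (SE 0.14), while HPT1 stood at -0.58 (SE 0.10).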
